A study of Homo sapiens with 3 samples.

Results

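The CXC chemokine ligands are small secreted proteins, named for the spacing of their first cysteines, that guide leucocytes and in part blood vessel growth. The 10 ligands described here are CXCL1, CXCL2, CXCL3, CXCL5, CXCL6, CXCL8, CXCL10, CXCL11, CXCL14 and CXCL16. They were taken by symbol, through the RefSeq accession of each array probe, and had 13 probes of the arrays, out of 19699 genes with a matched probe. CXCL1, CXCL2 and CXCL10 had 2 probes each and the other 7 ligands had 1, and each of these probes was printed as 1 spot.

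The cells were PANC-1, an established human line from a pancreatic ductal carcinoma. The control culture carried no listed agent, and no vehicle was named. The treated cultures received cantharidin (CAN), a blister beetle terpenoid, or okadaic acid (OA), a marine toxin, each labelled as 20 µM for 24 h. Both agents inhibit protein phosphatase 2A (PP2A). The study was about cantharidin in pancreatic cancer xenografts, and it used these arrays to examine genes linked to angiogenesis under both agents. There were 3 arrays, 1 per group, so no difference could be set against the spread between cultures and no p-value is given.

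CXCL1, CXCL2, CXCL3, CXCL5, CXCL6 and CXCL8 carry a Glu-Leu-Arg motif before the first cysteines. They bind CXCR2, and CXCL6 and CXCL8 also CXCR1. They attract neutrophils and are known as angiogenic, and epithelial cells make them when NF-κB is active. CXCL10 and CXCL11 lack the motif, bind CXCR3 on T cells and are induced by interferons. CXCL14 is a ligand of epithelia, and CXCL16 is a membrane-bound ligand of CXCR6 that ADAM10 and ADAM17 cut from the cell surface.

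Ligand genes of this family are known targets of NF-κB, and the stretches before their starts are printed because nearly all held the same NF-κB letters. In the RefSeq promoter table (build GRCh38.p14), 9 of the 10 ligands had an entry. In the 250 bases before the start, on both strands, the letters GGAATTTCC, a form of the NF-κB site, were found in 8 of these 9 ligands, and CXCL14 was the exception. Among all 35116 promoters of the table, 145 held them (0.413%). The site lay 91 to 83 bases before the start in CXCL8, 78 to 70 in CXCL1 and CXCL3, and 77 to 69 in CXCL2. It lay 90 to 82 bases before the start in CXCL5 and 89 to 81 in CXCL6. The 120 bases before the start of these 6 ligands, 5′ to 3′ in the sense of the gene with the site in capitals, were the following.

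For CXCL8 the stretch was chr4:73740449-73740568 on the plus strand, and for CXCL1 it was chr4:73869273-73869392 on the plus strand. For CXCL2 it was chr4:74099196-74099315 on the minus strand, for CXCL3 chr4:74038690-74038809 on the minus strand, for CXCL5 chr4:73998678-73998797 on the minus strand and for CXCL6 chr4:73836558-73836677 on the plus strand.

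CXCL8: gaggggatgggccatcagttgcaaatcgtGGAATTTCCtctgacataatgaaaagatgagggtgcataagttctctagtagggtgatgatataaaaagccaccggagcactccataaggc
CXCL1: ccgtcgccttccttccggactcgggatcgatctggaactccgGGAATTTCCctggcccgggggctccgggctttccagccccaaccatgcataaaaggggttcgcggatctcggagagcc
CXCL2: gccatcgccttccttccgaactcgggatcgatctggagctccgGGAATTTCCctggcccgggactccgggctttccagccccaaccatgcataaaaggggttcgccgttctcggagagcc
CXCL3: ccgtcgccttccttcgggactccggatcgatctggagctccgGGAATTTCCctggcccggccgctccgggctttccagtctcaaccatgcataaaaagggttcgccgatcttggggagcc
CXCL5: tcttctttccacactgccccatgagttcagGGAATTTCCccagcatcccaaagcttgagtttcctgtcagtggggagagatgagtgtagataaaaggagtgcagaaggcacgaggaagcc
CXCL6: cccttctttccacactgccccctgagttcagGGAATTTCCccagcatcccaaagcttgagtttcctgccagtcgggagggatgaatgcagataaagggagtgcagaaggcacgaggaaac

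Over the 250 bases, CXCL5 and CXCL6 were 85.3% identical in a global alignment, CXCL1 and CXCL3 81.4%, CXCL2 and CXCL3 73.4%, and CXCL1 and CXCL2 70.1%. The remaining pairs of the 36 had 41.9% to 54.2% identity. No relation between these sequences and the responses was tested.

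The interferon-inducible ligands are shown over the whole 250 bases because the marked sites of CXCL10 lay more than 120 bases before the start. The stretches were chr4:76023498-76023747 on the minus strand for CXCL10 and chr4:76036071-76036320 on the minus strand for CXCL11, whose marked site lay nearer. Here the NF-κB letters read GGAAATTCC, which is the same site on the other strand, 176 to 168 bases before the start in CXCL10 and 75 to 67 in CXCL11. In CXCL10 the capitals also mark GAAAGTGAA, 221 to 213 bases before the start, a match to GAAANNGAA, the core of an interferon response element.

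CXCL10: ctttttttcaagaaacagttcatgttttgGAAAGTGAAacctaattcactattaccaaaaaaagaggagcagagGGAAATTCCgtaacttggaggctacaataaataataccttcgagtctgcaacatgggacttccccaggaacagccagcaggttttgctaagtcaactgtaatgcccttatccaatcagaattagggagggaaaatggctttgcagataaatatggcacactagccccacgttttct
CXCL11: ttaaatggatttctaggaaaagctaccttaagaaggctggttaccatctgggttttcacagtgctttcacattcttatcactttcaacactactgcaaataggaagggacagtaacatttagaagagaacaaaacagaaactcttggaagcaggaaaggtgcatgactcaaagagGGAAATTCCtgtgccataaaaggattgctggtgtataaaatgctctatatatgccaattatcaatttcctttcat

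The letters GAAANNGAA occurred in CXCL2, CXCL3 and CXCL10 and in 6.88% of all promoters. TGANTCA, the site of the AP-1 factors FOS and JUN, occurred in CXCL8, CXCL11 and CXCL14 and in 6.57% of all promoters. TATAAA occurred in CXCL8 and CXCL11 and in 10.7%. No 2 of these matches overlapped in a ligand. A match describes the letters and is no evidence of binding.

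All values below are processed intensities, in scanner units, given in the order control, CAN and OA. Probes differ in how they bind, so values are compared between arrays for the same probe and never between ligands. A difference is in log2 units, relative to the 75th percentile of intensity on the same array, which was 784, 713 and 936. Its error is the spread between repeated spots of probes of like brightness (spot SD), a technical error within an array. A ligand was called higher or lower at 1.5-fold, the threshold of the study, where the background flag was passed on 1 or both of the arrays compared. The dimmest probes well above background had intensities of 35.0, 21.9 and 58.0, and 15667, 15877 and 14927 genes passed that flag. RNA of whole cultures was measured, so more cells expressing a ligand and more transcript per cell cannot be told apart.

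Of the 10 ligands, 6 were well above background in the control culture and 7 in each treated culture. Under CAN, 6 of the 7 ligands that could be compared were higher than in the control, none was lower and 1 stayed under 1.5-fold. Among all genes compared, 27.5% were higher and 34.1% lower in that comparison. Under OA all 7 were higher, where 28.1% of all genes were higher and 28.8% lower. Between the agents, 6 were higher with OA than with CAN, none was lower and 1 stayed under 1.5-fold, where 29.5% of all genes were higher and 22.3% lower. Without scaling between arrays, the shares of all genes were 24.8% higher and 39.0% lower for CAN, 36.6% and 22.4% for OA, and 47.1% and 13.9% for OA against CAN. The counts of ligands were then the same, except that 1 ligand, CXCL16, was lower under CAN. CXCL14 passed the flag on the treated arrays alone, so it entered the comparisons with control only through them. Of the 6 ligands well above background on all arrays, 5 were higher under CAN and 6 under OA. Among all genes with that detection, 26.1% and 28.2% were higher. The list of ligands was chosen with earlier results of these data known. Over the 6 ligands well above background on all arrays, the median log2 difference was 1.11 for CAN, 4.10 for OA and 2.13 for OA against CAN. The same medians over 14222 genes were -0.17, 0.04 and 0.17.

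**Figure D1:**
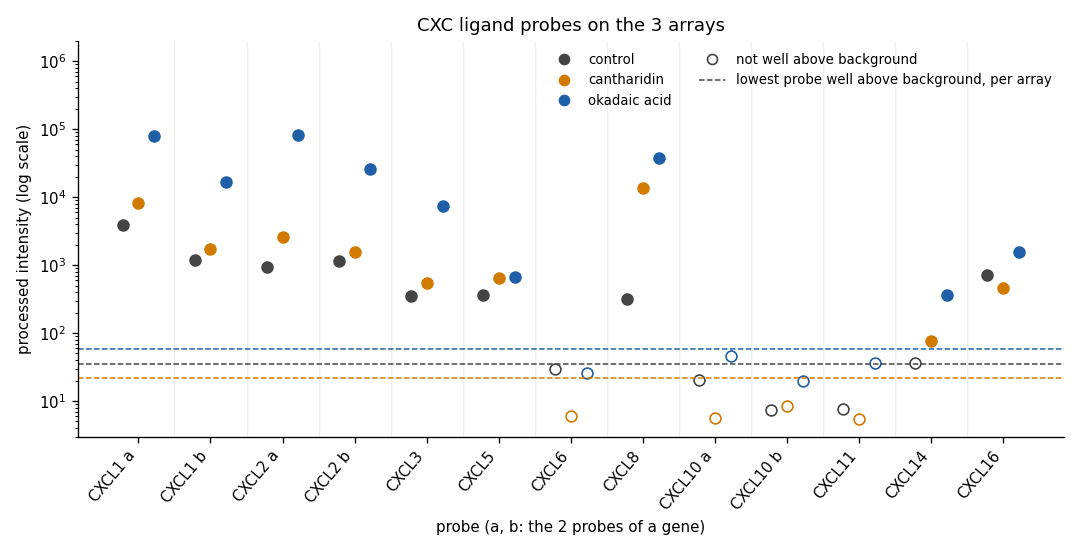
Processed intensity (log scale) of the 13 probes of the 10 ligands with 1 point for each array (control, cantharidin, okadaic acid). Open points were not well above background, dashed lines give the lowest intensity of a probe well above background on each array (35.0, 21.9 and 58.0), and CXCL8 lies at 315, 13626 and 37772.

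CXCL8 (interleukin-8), the best known neutrophil attractant of the family, had intensities of 315, 13626 and 37772 at probe A_32_P87013. Both treated cultures lay far above the control, and OA above CAN. It was 47.6-fold higher under CAN (log2 5.57, spot SD 0.10) and 101-fold higher under OA (6.65, spot SD 0.09). Among genes measured on both arrays its difference ranked 10 of 14900 under CAN and 6 of 14428 under OA. The step from CAN to OA was 2.11-fold (1.08, spot SD 0.09), rank 2106 of 14604. CXCL8 was the only ligand whose difference under CAN lay near the top of all genes, and the others measured on both arrays ranked 1474 or lower.

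CXCL1, CXCL2 and CXCL3 (the GRO ligands), which act through CXCR2, had another pattern, with a small difference under CAN and a large one under OA. CXCL2 had intensities of 929, 2579 and 82705 at probe A_23_P315364. The control and CAN values lay within a few-fold of each other, and the OA value stood far above them. It was 3.06-fold higher under CAN (1.61, spot SD 0.09) and 74.6-fold higher under OA (6.22, spot SD 0.08), rank 9 of 14428. Its second probe, A_24_P257416, gave 1161, 1575 and 25930. That probe was 1.49-fold higher under CAN, just short of the threshold, and 18.7-fold higher under OA. The order of the 3 cultures was thus the same at both probes and the size was not. The median of the probes gave a log2 difference of 5.22 under OA.

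CXCL1 had intensities of 3911, 8300 and 79646 at probe A_23_P7144. This was 2.34-fold higher under CAN (1.22, spot SD 0.08) and 17.1-fold higher under OA (4.09, spot SD 0.07). The second probe, A_33_P3330264, gave 1206, 1741 and 16445, which was 1.59-fold and 11.4-fold higher. CXCL1 therefore had the OA culture highest and the control lowest at both probes. CXCL3 had intensities of 355, 553 and 7332 at probe A_24_P183150. It was 1.71-fold higher under CAN (0.78, spot SD 0.10) and 17.3-fold higher under OA (4.11, spot SD 0.08). In rank, CXCL1 stood at 2158 and CXCL3 at 3255 of 14900 under CAN, against 85 and 81 of 14428 under OA.

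Set directly against each other, OA was above CAN by 7.30-fold for CXCL1 (2.87, spot SD 0.09), by 24.4-fold for CXCL2 (4.61, spot SD 0.10) and by 10.1-fold for CXCL3 (3.34, spot SD 0.09). These differences ranked 139, 10 and 65 of 14604 genes. The transcripts of CXCL1, CXCL2 and CXCL3 are alike in sequence, and cross-binding between their probes was not tested.

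CXCL5, a CXCR2 ligand of epithelia that lies among the GRO genes, did not share the step under OA. Its intensities were 363, 653 and 661 at probe A_24_P277367, with the treated cultures close together and above the control. It was 1.98-fold higher under CAN (0.99, spot SD 0.10) and 1.53-fold higher under OA (0.61, spot SD 0.09), and OA lay 1.30-fold below CAN (-0.38, spot SD 0.10). The OA difference fell under 1.5-fold with normexp background correction (0.46) and with scaling to the median (0.49). CXCL6, whose 250 upstream bases were the nearest to those of CXCL5, gave 29.3, 6.02 and 25.4 and passed the background flag on no array, so no fold is given. CXCL5 and CXCL6 both carried the NF-κB letters upstream, as did CXCL1, CXCL2, CXCL3 and CXCL8.

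**Figure D2:**
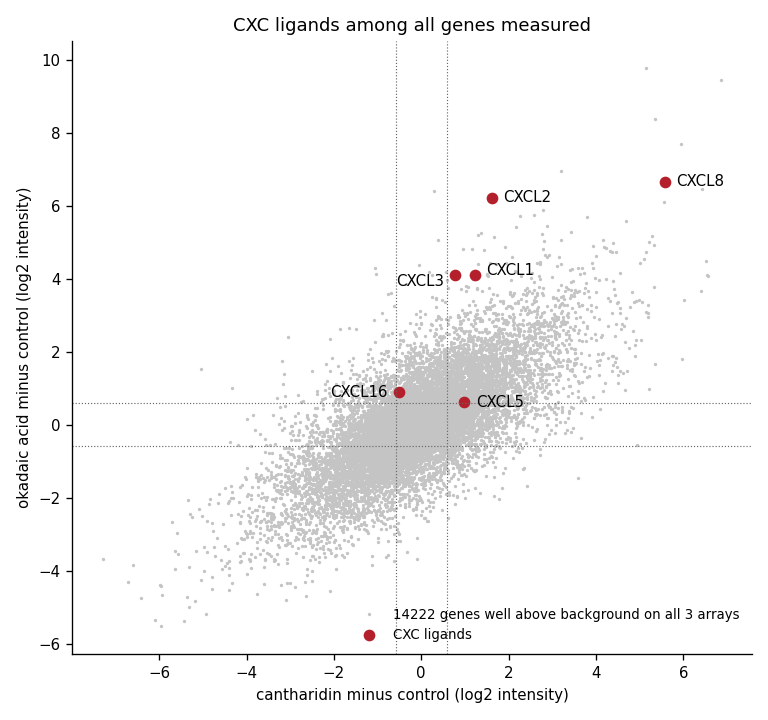
Log2 difference from control under cantharidin (horizontal) and okadaic acid (vertical) for 14222 genes well above background on all 3 arrays (grey), with the 6 such CXC ligands in red and the 1.5-fold threshold dotted. Both axes share the control array, CXCL8 lies high on both axes, and CXCL1, CXCL2 and CXCL3 lie high on the vertical axis with cantharidin differences of 1.22, 1.61 and 0.78.

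CXCL14, a ligand of normal epithelia that carries no Glu-Leu-Arg motif, was not well above background in the control and was in both treated cultures. Its intensities were 36.7, 77.5 and 366 at probe A_33_P3590259, and only the OA value was far from the dimmest detected probes. It was at least 2.33-fold higher under CAN and at least 8.35-fold higher under OA, and OA was 3.59-fold above CAN (1.84, spot SD 0.16). These bounds hold for the processed intensity and take the higher of the control value and the lowest detected intensity of that array. With normexp background correction its log2 differences were smaller, at 0.53 for CAN (under the threshold), 1.67 for OA and 1.14 for OA against CAN.

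CXCL16, the transmembrane ligand, was the only ligand well above background with a value below control under CAN. Its intensities were 718, 457 and 1578 at probe A_33_P3351249. It lay 1.43-fold below control under CAN (-0.51, spot SD 0.10), short of the threshold, and was 1.84-fold higher under OA (0.88, spot SD 0.08). OA was 2.63-fold above CAN (1.39, spot SD 0.10). Without scaling between arrays the CAN difference was -0.65, past the threshold. ADAM17 had intensities of 212, 635 and 397, which was 3.29-fold and 1.57-fold higher. ADAM10 gave 1.12-fold and 2.09-fold, but its other probe lay 2.17-fold below control under CAN and 1.23-fold above it under OA. CXCR6, the receptor of CXCL16, passed the background flag on no array.

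CXCL10 and CXCL11, the interferon-inducible CXCR3 ligands, stayed under the background flag throughout. The CXCL10 probes gave 20.6, 5.60 and 46.3 at A_33_P3343175 and 7.32, 8.57 and 19.4 at A_24_P303091. CXCL11 gave 7.53, 5.53 and 36.0 at A_23_P125278. The highest value of each probe was in the OA culture, under the lowest detected intensity of 58.0 there, and the scanner error was 27.5% to 100% of these signals, so no order is read from them. For the ligands well above background on all arrays the scanner error was about 10% of the signal, and for CXCL14 it ran from 10.6% under OA to 23.8% in the control.

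The other members of the family were mostly dim. Of 7 further CXC ligands, 4 could be compared under CAN, with 0 higher and 2 lower, and 4 under OA, with 1 higher and 0 lower. For all genes the shares were 27.5% higher and 34.1% lower under CAN, and 28.1% and 28.8% under OA. The further ligand that was higher was PF4, a platelet ligand, with intensities of 110, 78.3 and 256 and a 1.94-fold higher value under OA. CXCL9, the third CXCR3 ligand induced by interferon, gave 61.7, 30.6 and 56.7 and passed the background flag in the control culture alone. So did CXCL17, and these were the 2 that were lower under CAN.

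Of the 9 receptors that bind CXC ligands, 7 could be compared under CAN, with 2 higher and 2 lower, and 6 under OA, with 2 higher and 0 lower. All genes gave 27.5% higher and 34.1% lower under CAN, and 28.1% and 28.8% under OA. CXCR4, the receptor of CXCL12, had intensities of 73.6, 460 and 5173 and was 6.87-fold higher under CAN (2.78, spot SD 0.19) and 58.9-fold higher under OA (5.88, spot SD 0.18). CXCR4 thus had the control lowest and OA highest, as did CXCL1, CXCL2, CXCL3 and CXCL8. CXCR2, the receptor of the Glu-Leu-Arg ligands, was near background at 49.6, 34.2 and 107, and was 1.81-fold higher under OA. CXCR1 gave 143, 127 and 210 and stayed under the threshold. The probes of CXCR3 disagreed. The brighter probe lay 1.25-fold and 1.29-fold below control and the dimmer 1.70-fold and 5.66-fold above it.

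Among 27 measured CC, XC and CX3C chemokines, 21 could be compared under CAN, with 6 higher and 6 lower, and 20 under OA, also with 6 higher and 6 lower. Against control the counts were even. All genes compared gave 27.5% higher and 34.1% lower under CAN, and 28.1% and 28.8% under OA. Of the CXC ligands described here, 6 of 7 and 7 of 7 were higher, and of the further CXC ligands 0 of 4 and 1 of 4. For OA against CAN, 10 of 21 CC, XC and CX3C chemokines were higher and 3 lower, where all genes gave 29.5% and 22.3%. The CXC ligands described here had 6 of 7 higher and 0 lower, and the further ones 1 of 2 and 0. The difference between the groups was not tested. The paper had already reported CXCL1, CXCL2, CXCL3, CXCL5, CXCL8 and CXCL14 as upregulated by both agents in these array data. The CXC list was chosen with such results known, so its counts are no independent contrast to the other lists. CCL20, a CCR6 ligand of epithelia, had intensities of 369, 4682 and 22880, which was 14.0-fold and 51.9-fold higher. CCL2, the main attractant of monocytes, had 2967, 192 and 3195, so it was 14.1-fold lower under CAN and within 1.11-fold of control under OA. CCL27 was 10.3-fold higher under CAN and 3.45-fold higher under OA. CCL1 had 64.9, 478 and 14.5, which was 8.11-fold higher under CAN and, below background under OA, at least 1.33-fold lower there. CCL26 was 1.82-fold and 7.73-fold higher. CCL4 was 4.55-fold higher under OA and 1.26-fold below control under CAN.

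**Figure D3:**
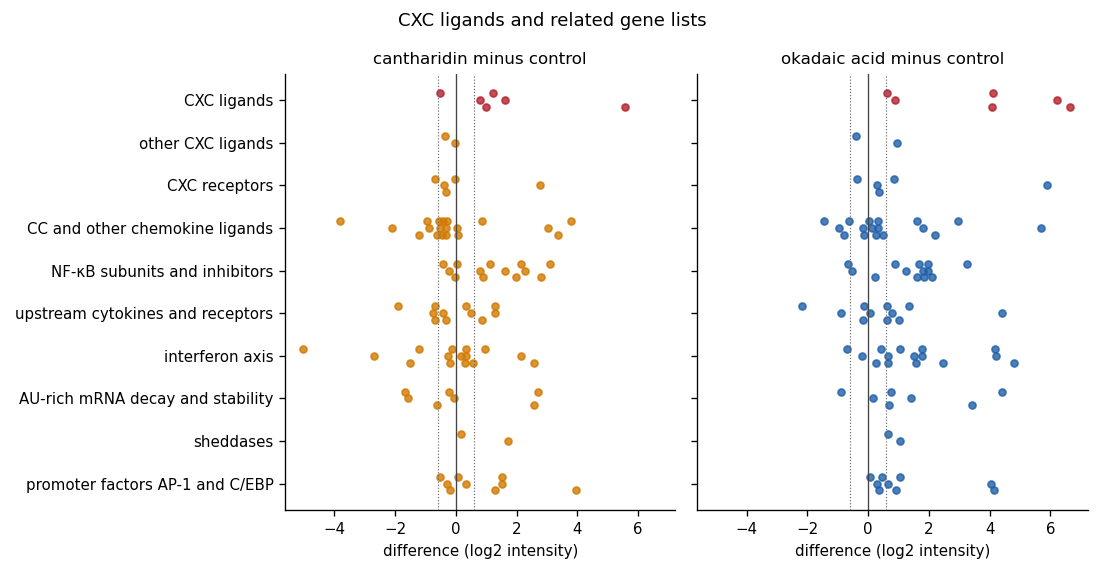
Log2 difference from control under cantharidin (left) and okadaic acid (right) for each gene of 10 lists that was well above background on both arrays compared, 1 point per gene, with the 1.5-fold threshold dotted. The CXC ligands described here (red) lie from -0.51 (CXCL16) to 5.57 (CXCL8) under cantharidin and from 0.61 (CXCL5) to 6.65 (CXCL8) under okadaic acid. The CC and other chemokines lie from -3.81 (CCL2) to 3.80 (CCL20) and from -1.44 (CCL28) to 5.70 (CCL20).

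NF-κB factors bind the site that 8 of the ligand promoters carried, and their inhibitors hold them in the cytoplasm. Of 13 measured subunits, kinases and inhibitors, 9 were higher and 0 lower under CAN, and 10 were higher and 1 lower under OA. All genes gave 27.5% higher and 34.1% lower under CAN, and 28.1% and 28.8% under OA. The median log2 difference of the 13 was 1.14 and 1.68. RELB was 8.50-fold higher under CAN and 3.21-fold higher under OA, RELA 4.83-fold and 1.85-fold, and REL 4.42-fold and 4.33-fold. NFKBIB, which encodes an inhibitor, was 6.89-fold and 3.90-fold higher, while its other probe was 3.30-fold higher under CAN and, under the threshold, 1.35-fold above control under OA. The inhibitor genes TNFAIP3 and NFKBIA, which NF-κB itself induces, were 3.06-fold and 1.02-fold above control under CAN and 9.52-fold and 3.96-fold under OA. RELA and RELB were therefore highest under CAN, and TNFAIP3, NFKBIA and the GRO ligands highest under OA. BCL3 was the member that was lower under OA, by 1.57-fold.

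The NF-κB letters were also found upstream of genes outside the family. Of 68 other genes with these letters and a probe, 60 could be compared under CAN, and 30.0% were higher and 31.7% lower. Under OA 60 could be compared, and 40.0% were higher and 25.0% lower, beside 28.1% and 28.8% of all genes. Between the agents, 39.3% of 61 were higher with OA and 11.5% lower. REL, NFKBIA, NFKBIB, NFKBIZ and NFKB1 were among these genes. The shares under CAN were near those of all genes, and no test was made of any share.

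Of 9 genes for AP-1 and C/EBP factors, which act with NF-κB on the CXCL8 promoter, 4 were higher and 0 lower under CAN. Under OA 5 were higher and 0 lower. The shares over all genes were 27.5% higher and 34.1% lower under CAN, and 28.1% and 28.8% under OA. FOS had intensities of 3434, 8879 and 72510, which was 2.85-fold and 17.7-fold higher. FOSB was 15.7-fold and 16.4-fold higher, and CEBPB 2.87-fold and 2.07-fold. FOS thus had its large step between CAN and OA, and FOSB between the control and CAN.

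Among 12 cytokines and receptors that act upstream of these ligands, 4 were higher and 4 lower under CAN, and 7 were higher and 2 lower under OA. For all genes the shares were 27.5% higher and 34.1% lower under CAN, and 28.1% and 28.8% under OA. TNF, a strong inducer of NF-κB, had intensities of 169, 377 and 4295, which was 2.46-fold and 21.3-fold higher. IL1B gave 53.6, 38.7 and 128 and was 2.00-fold higher under OA. IL17RA, a receptor subunit for interleukin-17, was 2.45-fold and 2.51-fold higher at its brightest probe. Its other probes, below background in the control, disagreed. The first was at least 8.82-fold higher under CAN and at least 1.68-fold higher under OA, and the last had intensities of 22.9, 351 and 51.7 and was detected under CAN alone. TNFRSF1A, a receptor of TNF, was 3.70-fold lower under CAN and 4.55-fold lower under OA.

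Transcripts of some of these ligands, among them CXCL8 and the GRO ligands, are known as short-lived because AU-rich elements in their tails draw decay factors. Transcript tails and half-lives were not examined here. Of 7 decay factors and stabilisers, 2 were higher and 3 lower under CAN, and 5 were higher and 1 lower under OA. The shares over all genes were 27.5% higher and 34.1% lower under CAN, and 28.1% and 28.8% under OA. ZFP36L2 was 6.61-fold and 21.1-fold higher, and ZC3H12A, a ribonuclease that cuts cytokine transcripts, 6.02-fold and 10.7-fold. ZFP36L1 went in opposite directions, at 2.94-fold lower under CAN and 2.65-fold higher under OA. HNRNPD was 1.53-fold lower and 1.63-fold higher at its brighter probe, and 5.99-fold lower and, under the threshold, 1.30-fold above control at the other. ELAVL1, a stabiliser, was lower with both, by 3.17-fold and 1.84-fold.

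Interferon genes were examined because CXCL10 and CXCL11 respond to interferons. Of 17 genes, 15 could be compared under CAN, with 3 higher and 4 lower, and 16 under OA, with 12 higher and 1 lower. The shares over all genes were 27.5% higher and 34.1% lower under CAN, and 28.1% and 28.8% under OA. IFIT2 was 1.95-fold and 28.1-fold higher at its brighter probe, IRF7 4.42-fold and 18.5-fold, and IFNL1 18.3-fold higher under OA. The other IFIT2 probe had intensities of 9.73, 6.14 and 119, was detected under OA alone and was at least 2.84-fold higher there. IFIT1 was 32.8-fold lower under CAN and 2.87-fold higher under OA. ISG15 and OAS1 were lower under CAN, by 2.32-fold and 6.56-fold, and higher under OA, by 3.44-fold and 1.58-fold. CXCL10 and CXCL11 were thus below detection in an OA culture in which most listed interferon genes were higher. IFNG stayed under the background flag throughout.

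The ligand genes other than CXCL14 and CXCL16 lie on chromosome 4, in 2 groups. Their order along the first group was CXCL8, CXCL6, CXCL1, CXCL5, CXCL3 and CXCL2, with PF4V1 between CXCL6 and CXCL1, and PF4 and PPBP between CXCL1 and CXCL5. CXCL5, with 1.53-fold under OA, therefore lay between CXCL1 and CXCL3, with 17.1-fold and 17.3-fold. PF4V1 and PPBP passed the background flag on no array. Past CXCL2 came MTHFD2L, EPGN, EREG, AREG and BTC. AREG, an EGF receptor ligand, had intensities of 3702, 14645 and 12745, which was 4.35-fold and 2.88-fold higher. EREG, of the same family, was 2.67-fold lower under CAN and within 1.09-fold of control under OA. On the other side, next to CXCL8, RASSF6 was higher by at least 4.62-fold under CAN and at least 3.96-fold under OA, and ALB, AFP and AFM were not well above background.

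In the second group, CXCL10 and CXCL11 lie next to each other, beyond CXCL9 and ART3 and before NUP54. ART3 gave 1.22-fold below control under CAN and 2.00-fold above it under OA, and NUP54 was 2.13-fold and 2.18-fold higher. SCARB2, the next gene, was 3.85-fold and 1.67-fold lower. CXCL14 lies alone on chromosome 5, and its neighbours NEUROG1 and SLC25A48 were not well above background. CXCL16 lies alone on chromosome 17 between MED11, which was 3.91-fold and 2.45-fold lower, and ZMYND15, which stayed under the threshold at 1.26-fold and 1.05-fold.

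**Figure D4:**
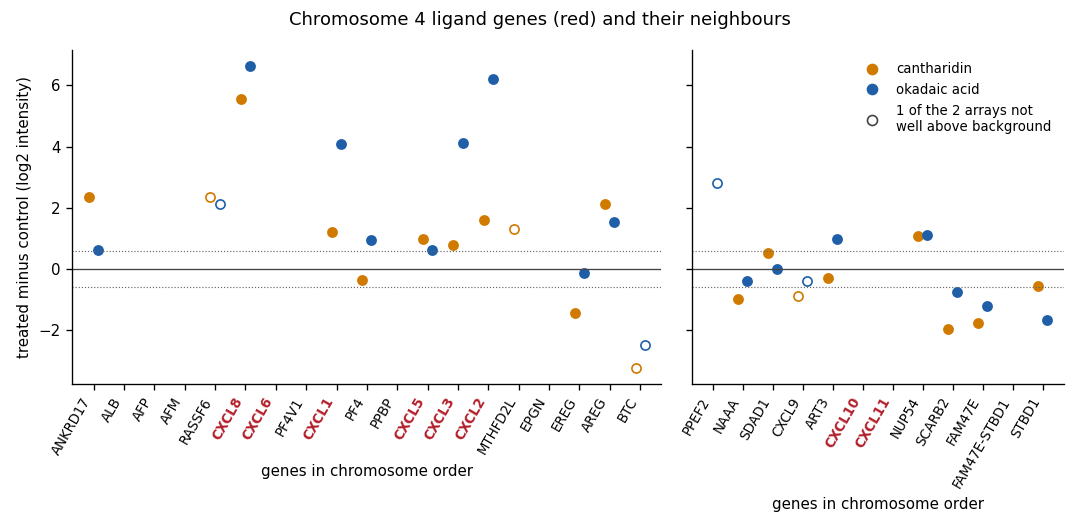
Log2 difference from control under cantharidin and okadaic acid for the chromosome 4 ligand genes (red names) and 5 protein-coding neighbours on each side, in gene order and not to scale, with the 1.5-fold threshold dotted. Names without a point were not well above background on either array, except FAM47E-STBD1, which had no matched probe. CXCL5 at 0.61 under okadaic acid stands between CXCL1 at 4.09 and CXCL3 at 4.11.

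The genes nearest to each pattern were found by the distance between their CAN and OA differences over 14222 genes, which covers only 3 arrays. Nearest to CXCL8 were PPP1R10 (distance 0.55), EGR1 (0.87), C11orf96 (1.09), PDE4DIP (1.38) and CHAC1 (1.49). PPP1R10, a regulatory subunit of protein phosphatase 1, had log2 differences of 5.56 and 6.10, and EGR1, an immediate early transcription factor, had 6.42 and 6.45. Nearest to the mean of CXCL1, CXCL2 and CXCL3 (1.20 and 4.81) were PTGES2-DT (0.03), HOXD1 (0.23), IFIT2 (0.24), GADD45G (0.40) and TNF (0.41). TNF had differences of 1.30 and 4.41.

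Markers of several cell types were examined. All 6 markers listed for the ductal line (the keratins KRT7, KRT8, KRT18 and KRT19, with CDH2 and VIM) were well above background on all arrays, with a summed level of 589, 658 and 541 times the 75th percentile. VIM and KRT18 made up most of that sum, while CDH2 was 13.9-fold lower under CAN and 5.02-fold lower under OA, and KRT8 2.25-fold lower under CAN. Of 7 leucocyte markers, 6 had a probe and all 6 were well above background on each array, with a summed level of 5.58, 4.65 and 13.9. The OA value was set mostly by CD14, with intensities of 2535, 1838 and 11044. Ductal and leucocyte markers both passed the flag, so passing it did not tell these cell types apart. PTPRC, the defining leucocyte marker, had 372, 263 and 405 at its brightest probe. The sum over these marker genes was thus highest in the culture in which CXCL1, CXCL2, CXCL3 and CXCL8 were highest. All cultures were labelled as PANC-1 cells, so the sum describes these transcripts and does not count leucocytes. Of the 6 markers, 2 were higher and 1 lower for OA against control, and 1 was higher and 0 lower for OA against CAN. For all genes the shares were 28.1% and 28.8%, and 29.5% and 22.3%. The part of these markers in the result was not tested. Endothelial markers summed to 2.88, 1.85 and 1.70, with VWF and CDH5 well above background on all arrays and PECAM1 only in the control, at 1 of its 3 probes (45.0). Fibroblast markers summed to 0.878, 0.358 and 0.197, with LUM below background throughout.

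**Figure D5:**
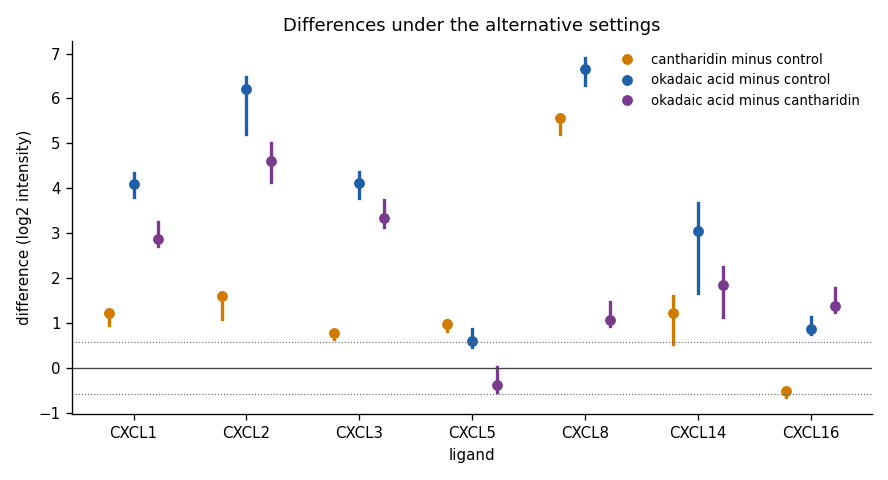
Log2 differences of the 7 ligands that could be compared, as reported (points) and their range over 9 or 10 alternative settings (lines), with the 1.5-fold threshold dotted. CXCL8 stays between 5.22 and 5.64 under cantharidin, CXCL2 between 5.22 and 6.48 under okadaic acid, and the lines of CXCL5, CXCL14 and CXCL16 cross the threshold.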

How the data were processed

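RNA of 3 PANC-1 cultures was hybridised to single-colour Agilent arrays, grouped here by sample title. For every array the authors deposited spot intensity values written by Feature Extraction 11.0.1.1. By its header settings, local background had been subtracted from these intensities and spatial trends removed, and arrays had not been scaled to each other. The deposited quality flags (outlier, saturated, well above background) were used as given. A second deposited table of log2 values, normalized in a way not given in the sources used here, held 10 of the 13 ligand probes and was used as an alternative. The arrays shared 1 slide and 1 scan, so slide position and group cannot be told apart.

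Spots flagged as outliers were left out, log2 intensity was averaged per probe, and the 75th percentile of each array was subtracted. No spot was saturated. Probes were named through RefSeq accessions, and 25705 matched 1 gene. A gene took its probe of highest mean log2 intensity. The spot SD came from 999 probes with 10 spots, as the median over the 100 nearest in brightness. Calls and bounds were tested on simulated data. Differences were computed with numpy 2.4.6 and pandas 2.3.3, and normexp with limma 3.58.1 (offset 50) on the median spot signal. Promoters came from RefSeq, GRCh38.p14, with global alignments in Biopython 1.88 (match 1, mismatch -1, gap opening -2, extension -0.5).

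All members and at most 6 genes of a list were named, those with the largest differences measured on both arrays or with opposite directions, together with the 5 nearest genes and 5 neighbours on each side. Genes named outside this rule were chosen after their values were seen. The members and lists were chosen with earlier results of these data known.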

Additional observations from a re-analysis of the deposited data

How the results depend on the processing

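With 1 array per group there is no measure of the spread between cultures, and leaving out a replicate was not possible. No paired analysis was possible because each group held 1 array. The counts of CXC ligands were recomputed under 12 alternatives in each comparison and direction. Of these 72 values, 70 stayed within 1.5 times the reported count. The exceptions were the ligands lower under CAN, 0 as reported, which were 1 without scaling (CXCL16) and 2 without a filter on dim probes (CXCL6 and CXCL10, both below background). The count higher under CAN ranged from 4 at a 2-fold threshold to 7 with each probe counted by itself, and that under OA from 5 at 2-fold to 9. Of 207 recomputed ligand differences, 149 moved by less than the spot SD, 58 moved by more and none that was called changed direction. Settings that changed only the filter on dim probes reused the same differences and could not move them. Setting dim signals to the array floor moved none, and the median over probes could move only CXCL1 and CXCL2. Part of the 149 was therefore fixed in advance. CXCL5 for OA against CAN, not called, changed from -0.38 to 0.02 without scaling. The median over all genes ranged from -0.30 to -0.09 for CAN and from -0.11 to 0.26 for OA. Intensities near background limit CXCL6, CXCL10, CXCL11 and CXCL14.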
